A study of Homo sapiens with 15 samples.

Results

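Among the 1707 mature miRNAs counted in the established human cell line U87-MG, which comes from a glioblastoma, 4 belonged to the muscle miRNAs considered here, namely hsa-miR-1-3p, hsa-miR-133a-3p, hsa-miR-133b and hsa-miR-206. They were chosen by name from the rows of the count files, because earlier results of the same data had shown muscle miRNAs running against the markers of other lineages from library to library. Their levels across libraries are therefore given as a description, without a test. The miRNA-Seq comprised 15 libraries in 5 groups of 3 replicates, all cultured for 24 h. Control cells without HIF knockout were kept in 21% O2 (normoxia) or in 1% O2 (hypoxia), and cells with a knockout of HIF1α, of HIF2α or of both (HIF1α/HIF2α-KO) were kept in 1% O2 only. The knockouts were made with CRISPR/Cas9 delivered by lentivirus, and all cells came from the same tumour line. Whether a knockout line was grown from 1 cell is not stated in the sources used here.

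miR-1 and the miR-133 miRNAs are made in heart and skeletal muscle, where paired genes place a miR-1 or miR-206 hairpin beside a miR-133 hairpin. Transcription factors of the muscle lineage, such as MyoD, SRF and MEF2, drive these pairs. In muscle, miR-1 and miR-206 promote differentiation, in part through repression of HDAC4, and miR-133 favours proliferation of myoblasts, in part through repression of SRF. miR-206 is largely restricted to skeletal muscle. None of these miRNAs is a defining miRNA of glial cells.

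The mature sequences are shown because the 4 miRNAs form 2 seed families with near-identical members, which limits how their reads can be told apart. They were taken from RefSeq (GRCh38.p14) and are written 5′ to 3′, with the seed (bases 2 to 8) in capitals.
hsa-miR-1-3p: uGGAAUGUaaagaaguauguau
hsa-miR-206: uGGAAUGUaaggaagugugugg
hsa-miR-133a-3p: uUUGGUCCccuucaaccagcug
hsa-miR-133b: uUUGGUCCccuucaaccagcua
miR-1-3p and miR-206 shared the seed GGAAUGU and 18 of 22 positions. Counted from the 5′ end, with the base of miR-1-3p first, they differed by A11G, A17G, A21G and U22G. miR-133a-3p and miR-133b shared the seed UUGGUCC and differed by G22A alone, with the base of miR-133a-3p first. The GC content of the mature miRNA was 27.3% in miR-1-3p, 45.5% in miR-206, 54.5% in miR-133a-3p and 50.0% in miR-133b.

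In GRCh38, the 4 miRNAs come from 6 hairpins in 3 pairs. MIR1-1 (chr20:62554306-62554376) and MIR133A2 (chr20:62564912-62565013) lie on the plus strand, 10535 bases apart, in introns of MIR1-1HG. MIR1-2 (chr18:21829004-21829088) and MIR133A1 (chr18:21825698-21825785) lie on the minus strand, 3218 bases apart, in exons of MIR133A1HG and opposite to introns of the gene MIB1. MIR206 (chr6:52144349-52144434) and MIR133B (chr6:52148923-52149041) lie on the plus strand, 4488 bases apart. MIR133B overlaps an intron of LINCMD1, which is annotated on the minus strand in GENCODE v29. miR-1-3p and miR-133a-3p thus each have 2 loci of the same mature sequence, and miR-133b and miR-206 have 1 locus each.

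Total counts per library ranged from 10360337 to 22496373. Levels are given as CPM, that is counts scaled to the total of the library. A floor of detection was set at 3 counts, or 0.133 to 0.290 CPM by library, and it covers counting error only. Of the 4 muscle miRNAs, 3 passed the filter on low counts that left 562 miRNAs for testing, and miR-206 did not. In bulk libraries, fewer cells with a miRNA and less of it in each cell cannot be told apart.

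miR-1-3p varied from 0.962 to 43.7 CPM among libraries (45.5-fold), a wider fold range than that of miR-133a-3p (5.94-fold) or miR-133b (5.13-fold). In control cells under normoxia, it stood at 0.962, 1.84 and 5.17 CPM in replicates 1, 2 and 3. Under hypoxia, the control cells gave 4.90, 18.8 and 25.5 CPM, and the HIF1α-KO cells gave 42.9, 33.6 and 5.60 CPM. The HIF2α-KO cells gave 1.04, 14.0 and 12.8 CPM, and the HIF1α/HIF2α-KO cells gave 19.2, 32.8 and 43.7 CPM. In the control, HIF1α-KO and HIF2α-KO cells under hypoxia, 1 library of each 3 was far below the other 2, and these 3 low libraries (4.90, 5.60 and 1.04 CPM) lay within or just above the range of normoxia. From the lowest to the highest, the group means were 2.66 ± 2.22 CPM (SD, n = 3) in normoxia, 9.29 ± 7.17 with HIF2α-KO, 16.4 ± 10.5 in hypoxic control cells, 27.4 ± 19.4 with HIF1α-KO and 31.9 ± 12.3 with HIF1α/HIF2α-KO. Each pair of neighbours in this order overlapped in its libraries. Among all miRNAs of a library, ranked from the most abundant, miR-1-3p held places from 156 to 468.

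miR-133a-3p, the partner of miR-1 in both of its gene pairs, was present above the floor in every library, at 0.641 to 3.81 CPM. It stood at 0.641, 1.23 and 1.97 CPM in control cells under normoxia and at 1.88, 2.49 and 1.72 CPM in control cells under hypoxia. The HIF1α-KO cells gave 3.81, 1.55 and 3.47 CPM, the HIF2α-KO cells 1.34, 2.95 and 1.36 CPM, and the HIF1α/HIF2α-KO cells 1.69, 2.63 and 3.26 CPM. Its highest level was 5.94 times its lowest, and the groups overlapped in all 7 pairwise comparisons made. These levels rested on 8 to 56 counts a library.

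miR-133b stood at 0.321, 0.461 and 0.923 CPM in control cells under normoxia and 0.847, 1.20 and 0.788 CPM in control cells under hypoxia. The HIF1α-KO cells gave 1.64, 0.726 and 1.64 CPM, the HIF2α-KO cells 0.669, 1.30 and 0.682 CPM, and the HIF1α/HIF2α-KO cells 0.651, 0.987 and 1.37 CPM. The library order was nearly that of miR-133a-3p. The counts were 4 to 27 a library.

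miR-206, the skeletal muscle miRNA, was at or below the floor in all 15 libraries. It had 0 counts in 8 libraries, 1 or 2 counts in 4 and 3 counts in 3, which gives 15 counts of 207299943 over all libraries. In HIF2α-KO cells it had 0 of 36721661 counts over the group, which allows a level of up to 0.0817 CPM. The 5 libraries with 2 or 3 counts were also the 5 with the most miR-1-3p, at 25.5 to 43.7 CPM, while the 10 libraries with 0 or 1 count held 0.962 to 19.2 CPM. These counts are too few to compare groups, and the part that reads of the related miR-1-3p could have in them was not tested.

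The ratio of miR-1-3p to miR-133a-3p counts was not steady, although both miRNAs come from the same 2 gene pairs. It ranged from 0.778 in HIF2α-KO replicate 1 to 21.7 in HIF1α-KO replicate 2, with a median of 7.57. miR-1-3p made up 34.1% to 93.3% of the counts of the 4 muscle miRNAs. Across the 15 libraries, log2(CPM + 1) of miR-1-3p and miR-133a-3p had a Pearson r of 0.62 (Spearman rho 0.60), which fell to 0.39 without the 2 libraries farthest from the median of miR-1-3p. The relation therefore rested in part on those 2 libraries.

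miR-133b and miR-133a-3p moved together far more closely, with r = 0.98 (rho = 0.97) over the 15 libraries. The ratio of miR-133b to miR-133a-3p counts lay between 0.375 and 0.500. In all 15 libraries there was at most 1 count of miR-133b for every 2 of miR-133a-3p, and in 3 libraries the ratio was exactly that. Summed over the libraries, miR-133b had 193 counts against 216 pairs of miR-133a-3p counts.

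The counts of miRNAs with several loci were often multiples of the number of loci. miR-133a-3p was an even number in 15 of 15 libraries and miR-1-3p in 13 of 15, the exceptions being 693 counts in HIF1α-KO replicate 2 and 295 in HIF1α/HIF2α-KO replicate 1. Among the other miRNAs tested that have 2 loci in RefSeq, 68.6% of 522 nonzero values were even, against 50.6% of 6988 values of miRNAs with 1 locus. Among those with 3 loci, 70.2% of 104 values were multiples of 3. hsa-miR-199a-3p, which has an identical copy listed as hsa-miR-199b-3p, had exactly 2 times its count in 15 of 15 libraries. How reads at several loci were counted is not given in the sources used here, and the level of miR-133b apart from miR-133a-3p is uncertain, since only their last base differs. Levels of miR-1-3p and miR-133a-3p, with 2 loci each, may likewise not be comparable in absolute terms with those of miR-133b and miR-206. The share of miR-1-3p, the summed levels and the ratio of miR-133b to miR-133a-3p used the counts as deposited. They therefore depend on how reads at several loci were counted.

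The other miRNAs of the muscle lineage were near 0. Of 12 on the list (the opposite strands of miR-1 and miR-133a, the myosin-hosted miR-208 and miR-499 miRNAs, and the erythroid and muscle miR-486), 6 were rows of the files and 0 of these exceeded 3 counts in any library. Their summed level was 0 to 0.240 CPM among all libraries. The 4 muscle miRNAs together reached 1.92 to 48.5 CPM, so the muscle miRNAs above the floor were miR-1-3p and the miR-133 miRNAs. Of the neural list, 5 of 6 rows exceeded the floor, and its summed level was 3646 to 10432 CPM, led by miR-9-5p and miR-128-3p, both known from neural cells and glioma.

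Markers of other lineages were also counted. The endothelial miR-126-3p and miR-126-5p summed to 3.90 to 51.9 CPM, epithelial miRNAs (6 of 6 rows above the floor, led by miR-200c-3p) to 39.4 to 121 CPM, and blood miRNAs (5 of 7, led by miR-451a) to 4.50 to 24.6 CPM. Mural and stromal miRNAs (8 of 9, led by miR-143-3p) summed to 148 to 687 CPM, and those of liver and pancreas (2 of 3, led by miR-375-3p) to 0.346 to 2.73 CPM. The endothelial, epithelial, blood, and liver and pancreas sums overlapped the range of the 4 muscle miRNAs together, and the mural and stromal sum lay above it in every library. By the largest gap in miR-126 on the log2 scale, the libraries fell into 6 with little (3.90 to 6.95 CPM) and 9 with more (14.5 to 51.9 CPM), and these sets are not groups of the study. miR-1-3p lay at 14.0 to 43.7 CPM in the 6 libraries with little miR-126 and at 0.962 to 32.8 CPM in the 9 with more.

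In each hypoxic genotype, miR-1-3p was higher in the libraries with little miR-126 than in those with more. The muscle miRNAs were picked for such an opposition, so it is described here and was not tested. In control cells, the 2 libraries with little miR-126 had 18.8 and 25.5 CPM of miR-1-3p, and the library with 51.9 CPM of miR-126 had 4.90. In HIF1α-KO cells, the corresponding levels of miR-1-3p were 42.9 and 33.6 CPM, against 5.60 in the library with 35.9 CPM of miR-126. In HIF2α-KO cells, 14.0 CPM stood against 1.04 and 12.8, the latter close to it, and in HIF1α/HIF2α-KO cells 43.7 CPM stood against 19.2 and 32.8. From replicate 1 to replicate 2 of HIF1α/HIF2α-KO, miR-1-3p rose from 19.2 to 32.8 CPM while miR-126 rose from 14.5 to 17.0 CPM. All 3 normoxic libraries were in the set with more miR-126 (17.8 to 37.0 CPM), so that oxygen and this set cannot be told apart for them.

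The opposition was not a graded relation in both sets. Within the 6 libraries with little miR-126, log2(CPM + 1) of miR-1-3p and of summed miR-126 had r = 0.78, and within the 9 others r = -0.44. For the epithelial sum the values were -0.40 and -0.58, and for the blood sum 0.53 and -0.47. For the mural and stromal sum they were 0.76 and -0.18, and for the liver and pancreas sum 0.16 and -0.22. The neural sum ran with miR-1-3p instead, with r = 0.58 over all 15 libraries and 0.31 and 0.39 within the sets. This sum was mostly miR-9-5p, with 7953 of 10432 CPM in hypoxic control replicate 2. Its other leading miRNA, miR-128-3p, did not follow miR-1-3p in every library. It was highest (2213 CPM) in HIF1α-KO replicate 2, with miR-1-3p at 33.6 CPM. It was 2127 CPM in normoxic replicate 1 and lowest (866 CPM) in HIF2α-KO replicate 2, with miR-1-3p at 0.962 and 14.0 CPM. Correlations of the single neural miRNAs with miR-1-3p are not given here. Over all 15 libraries, the miR-133 miRNAs had correlations with the other lineages nearer to 0. There miR-133a-3p had r = -0.26 with the epithelial sum and -0.32 with the blood sum, where miR-1-3p had -0.78 and -0.74. Within the sets with little and with more miR-126, this did not hold for every lineage. miR-133a-3p had -0.77 and 0.51 with the liver and pancreas sum and -0.37 and -0.49 with the neural sum, farther from 0 than miR-1-3p. With the epithelial sum it had 0.25 and 0.12, nearer to 0. In the set with little miR-126, miR-133a-3p was at 1.55 to 3.81 CPM, against 0.641 to 3.47 CPM in the other set. Over all libraries, miR-1-3p thus ran against the sums of the other lineages apart from the neural sum, which was mostly miR-9-5p. The muscle miRNAs were picked for this pattern, so it is given as a description only.

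**Figure D1:**
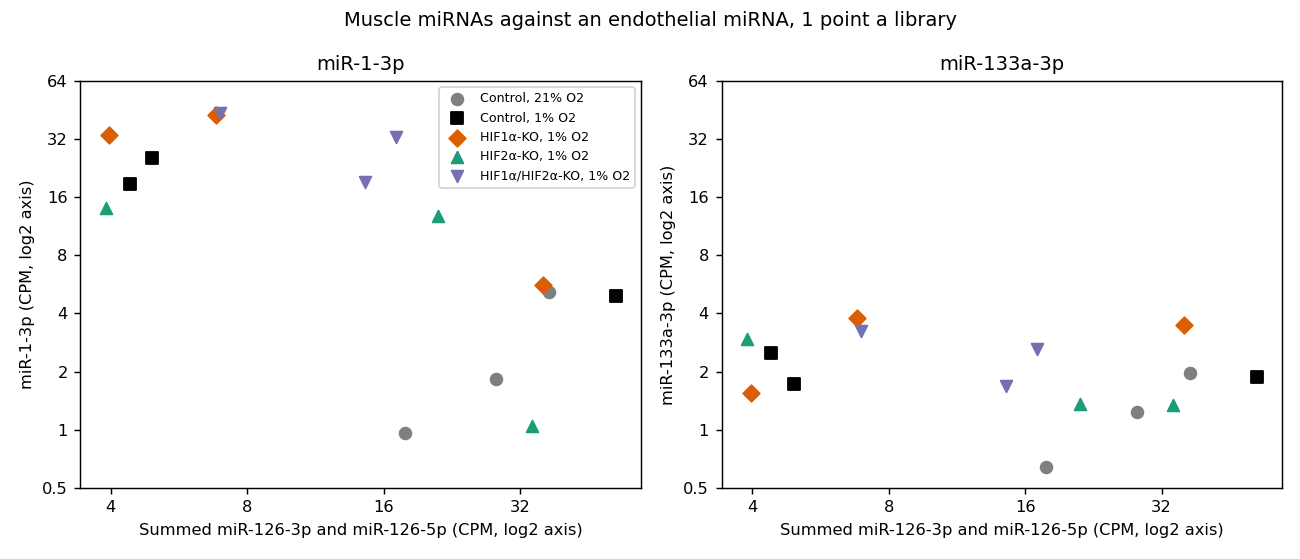
miR-1-3p (left) and miR-133a-3p (right) against the summed endothelial miR-126-3p and miR-126-5p, in CPM on log2 axes, 1 point a library by group. The 6 libraries with 3.90 to 6.95 CPM of miR-126 all hold at least 14.0 CPM of miR-1-3p. miR-133a-3p is at 1.55 to 3.81 CPM (median 2.72) in these libraries and at 0.641 to 3.47 CPM (median 1.69) in the others.

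The miRNAs whose library pattern was most like that of miR-1-3p were sought among all miRNAs tested, by Pearson r of log2(CPM + 1) over the 15 libraries. The 3 most like it were miR-29c-3p (r = 0.92), miR-374a-3p (0.90) and miR-374a-5p (0.90), and the 3 least like it were miR-92b-5p (-0.91), miR-449c-5p (-0.86) and miR-199a-5p (-0.80). The sequences of 5 of these 6 are shown because they differ in base composition.
hsa-miR-29c-3p: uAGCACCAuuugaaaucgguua
hsa-miR-374a-3p: cUUAUCAGauuguauuguaauu
hsa-miR-92b-5p: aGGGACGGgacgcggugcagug
hsa-miR-449c-5p: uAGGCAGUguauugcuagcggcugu
hsa-miR-199a-5p: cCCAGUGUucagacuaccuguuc
None shares a seed with miR-1-3p. The GC content was 36.4% in miR-29c-3p and 22.7% in miR-374a-3p, against 72.7% in miR-92b-5p, 52.0% in miR-449c-5p and 52.2% in miR-199a-5p. For miR-374a-5p, only the name is given.

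miR-29c-3p, a regulator of collagen and other matrix genes, had r = 0.91 with miR-1-3p in the libraries with little miR-126 (n = 6). It had r = 0.86 in those with more (n = 9). It was picked over the same 15 libraries, so these values are no separate check. Its range was narrower, from 19.7 to 53.8 CPM. miR-374a-3p had r = 0.79 and 0.91 in the same 2 sets. It ran from 0.845 to 96.3 CPM and did not follow miR-1-3p in every library. In HIF2α-KO replicate 2 it stood at 5.20 CPM with miR-1-3p at 14.0, and in replicate 3 at 78.2 CPM with miR-1-3p at 12.8. miR-199a-5p, a stromal miRNA, ran from 4.65 to 34.8 CPM, and was lowest in HIF1α-KO replicate 2.

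For miR-133a-3p, the most like were miR-133b (r = 0.98), miR-6868-3p (0.76) and miR-124-5p (0.74), and the least like were miR-7974 (-0.63), miR-4435 (-0.59) and miR-4755-5p (-0.58). miR-6868-3p and miR-124-5p were at most 1.45 CPM, so that these values rest on few counts. The same 5 miRNAs besides the partner stood at the ends of the list for miR-133b. All these correlations share the depth and composition of the same 15 libraries and are a description.

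Base composition moved with miR-1-3p. Of the miRNAs tested, 513 (91.3%) had a mature sequence, of which 43 besides the muscle miRNAs had at most 35% GC and 145 had at least 55%. The median r with miR-1-3p was 0.68 among those of low GC (41 of 43 positive), -0.25 among those of high GC and 0.06 among all 510. The median deviation of the 43 miRNAs of low GC from their mean over libraries had r = 0.80 with miR-1-3p across the 15 libraries (0.83 and 0.71 in the sets with little and with more miR-126). With miR-133a-3p, which has 54.5% GC, it had r = 0.14. In HIF2α-KO replicate 2, the median deviation was -0.39 (log2) although miR-1-3p was at 14.0 CPM. The part of base composition in the levels of miR-1-3p was not tested directly, and fits with a correction for it are given with the comparisons.

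**Figure D2:**
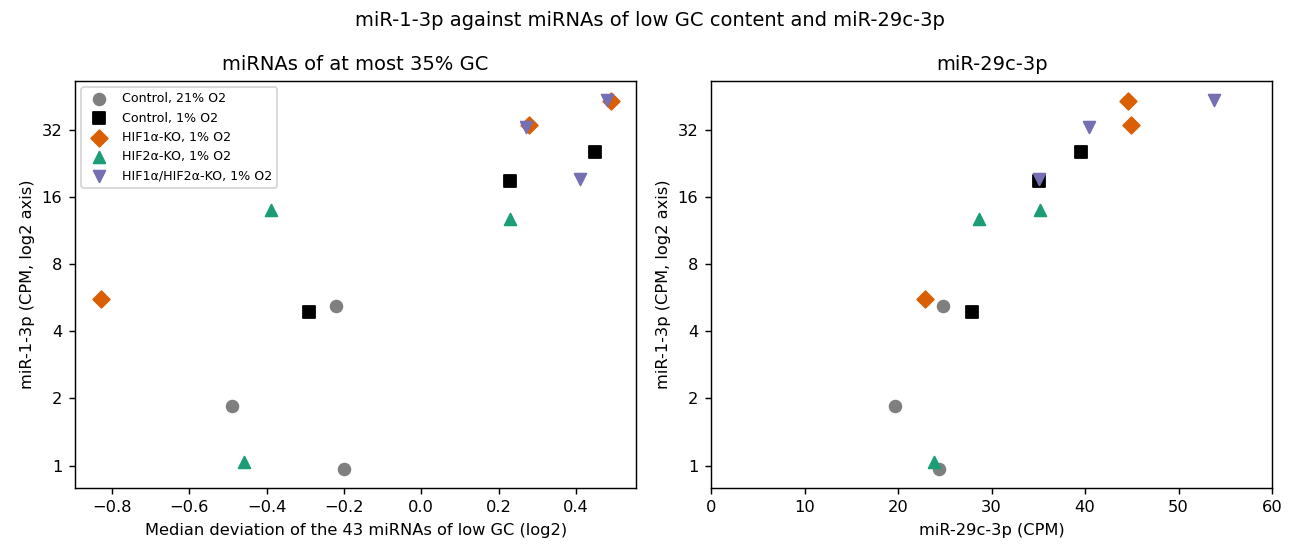
miR-1-3p (CPM, log2 axis) against the median log2 deviation of the 43 miRNAs of at most 35% GC (left) and against miR-29c-3p in CPM (right), 1 point a library by group. Libraries with a higher median of low-GC miRNAs or more miR-29c-3p hold more miR-1-3p, and HIF2α-KO replicate 2, at -0.39 and 14.0 CPM, stands off on the left.

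The groups were then compared with edgeR's quasi-likelihood test on the counts of all 562 miRNAs, with Benjamini-Hochberg adjustment over all of them and a threshold of 0.05. None of the 3 muscle miRNAs tested passed it in any of 8 comparisons, and DESeq2 and limma also called 0. Of all 562 miRNAs, DESeq2 called 12 for HIF1α-KO and 60 for HIF1α/HIF2α-KO against hypoxic control cells. It called 20 for HIF2α-KO against HIF1α-KO. For HIF1α/HIF2α-KO it called 25 against HIF1α-KO and 19 against HIF2α-KO, and it called 0 in the other comparisons. For limma, the calls over all miRNAs are not given here. At an unadjusted p under 0.05 in edgeR, 1 of the 3 muscle miRNAs passed, miR-1-3p in hypoxic against normoxic control cells, where 6.23% of all miRNAs did. Replicates are not stated to be separate cultures, so p-values measure only the spread between these libraries, and comparisons that share control libraries are not independent.

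Of the 8 comparisons, hypoxia against normoxia gave miR-1-3p its largest log2 fold change in this fit, although not with the miR-126 set as a covariate. In control cells, miR-1-3p was at 4.90, 18.8 and 25.5 CPM under hypoxia and at 0.962, 1.84 and 5.17 CPM under normoxia, and the groups overlapped through 1 library on each side, where 17.6% of all miRNAs did not overlap. The log2 fold change was 2.55 (SE 0.94), with an unadjusted p of 0.0174 and an adjusted p of 0.701 in the edgeR fit, where 0% of all miRNAs passed. miR-133a-3p gave 0.60 (SE 0.45, adjusted p 0.791) and miR-133b 0.66 (SE 0.47, adjusted p 0.791). The median of all miRNAs tested was 0.01. For miR-1-3p, a correction for GC content, chosen after seeing the data, gave 1.21 (SE 0.61, adjusted p 0.809). The set of libraries by miR-126 as a covariate gave 1.17 (SE 0.83, adjusted p 0.991). The muscle miRNAs were picked for running against markers of other lineages, of which miR-126 is 1. A covariate cut from it in the same libraries is therefore no independent check, here or in the other comparisons. The set with more miR-126 held all 3 normoxic libraries and 1 hypoxic control library, with 4.90 CPM of miR-1-3p.

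The knockouts were compared with control cells under hypoxia, where 1.25% of all miRNAs passed with HIF1α-KO, 0% with HIF2α-KO and 5.87% with loss of both. All 3 muscle miRNAs tested overlapped between the groups in each of these comparisons, and groups that did not overlap were seen for 20.3%, 16.9% and 30.1% of all miRNAs, in the same order. For miR-1-3p, HIF1α-KO cells (5.60 to 42.9 CPM) overlapped control cells (4.90 to 25.5 CPM), with a log2 fold change of 0.69 (SE 0.87, adjusted p 0.837 in edgeR). HIF2α-KO cells (1.04 to 14.0 CPM) gave -0.68 (SE 0.88, adjusted p 0.778), and HIF1α/HIF2α-KO cells (19.2 to 43.7 CPM) gave 0.88 (SE 0.87, adjusted p 0.619). The spread among replicates of 1 group was as large as these differences. The sign for HIF2α-KO turned with the GC correction (0.10) and with the miR-126 set as a covariate (0.07), and the latter moved HIF1α/HIF2α-KO to 1.70 (SE 0.73, adjusted p 0.146). miR-133a-3p gave 0.44, 0.01 and 0.23 in the 3 knockouts and miR-133b 0.37, 0.00 and -0.02, with standard errors of 0.43 to 0.48. The median of all miRNAs tested was -0.05, -0.01 and -0.02, in the same order.

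Between knockouts, 1.07% of all miRNAs passed for HIF2α-KO against HIF1α-KO, 1.42% for HIF1α/HIF2α-KO against HIF1α-KO and 1.78% for HIF1α/HIF2α-KO against HIF2α-KO. miR-1-3p was lower in HIF2α-KO than in HIF1α-KO cells by its mean (9.29 and 27.4 CPM), with a log2 fold change of -1.38 (SE 0.89, adjusted p 0.430 in edgeR) and overlapping libraries. HIF1α/HIF2α-KO cells gave 1.56 (SE 0.89, adjusted p 0.371) against HIF2α-KO cells, and here the libraries did not overlap (19.2 to 43.7 and 1.04 to 14.0 CPM), as was the case for 24.9% of all miRNAs. With the GC correction this difference was 0.52 (SE 0.58, adjusted p 0.665), and that between HIF2α-KO and HIF1α-KO cells was -0.76 (SE 0.59, adjusted p 0.492). With the miR-126 set as a covariate, they were 1.64 (SE 0.69, adjusted p 0.186) and -0.55 (SE 0.75, adjusted p 0.743). HIF1α/HIF2α-KO cells gave 0.18 (SE 0.86, adjusted p 0.938) against HIF1α-KO cells, which turned to -0.24 with the GC correction and was 1.09 (SE 0.74, adjusted p 0.482) with the miR-126 set. miR-133a-3p and miR-133b lay between -0.43 and 0.22 in these 3 comparisons, and their libraries overlapped in each (no overlap in 21.2%, 21.0% and 24.9% of all miRNAs, in the order given above).

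The interaction, that is whether the effect of HIF1α knockout differed with and without HIF2α, was 0.87 (SE 1.23, adjusted p 0.810 in edgeR) for miR-1-3p, -0.22 (SE 0.61) for miR-133a-3p and -0.40 (SE 0.63) for miR-133b, where 0% of all miRNAs passed. A fit without the filter on low counts was the exception to the count of 0 calls. It called miR-1-3p in 3 comparisons, with log2 fold changes of 2.60 (SE 0.30) for hypoxia against normoxia, -1.46 (SE 0.28) for HIF2α-KO against HIF1α-KO and 1.63 (SE 0.29) for HIF1α/HIF2α-KO against HIF2α-KO. This fit called 0.879%, 0.820% and 1.23% of all 1707 miRNAs in the same 3 comparisons. The fold changes were close to those with the filter, and the standard errors were smaller. The squared quasi-likelihood spread assigned to miR-1-3p, drawn from the fit over all 1707 miRNAs, was 0.53, against 4.68 with the filter. Its negative binomial dispersion, the other part of the spread in this model, was 0.431 against 0.534.

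**Figure D3:**
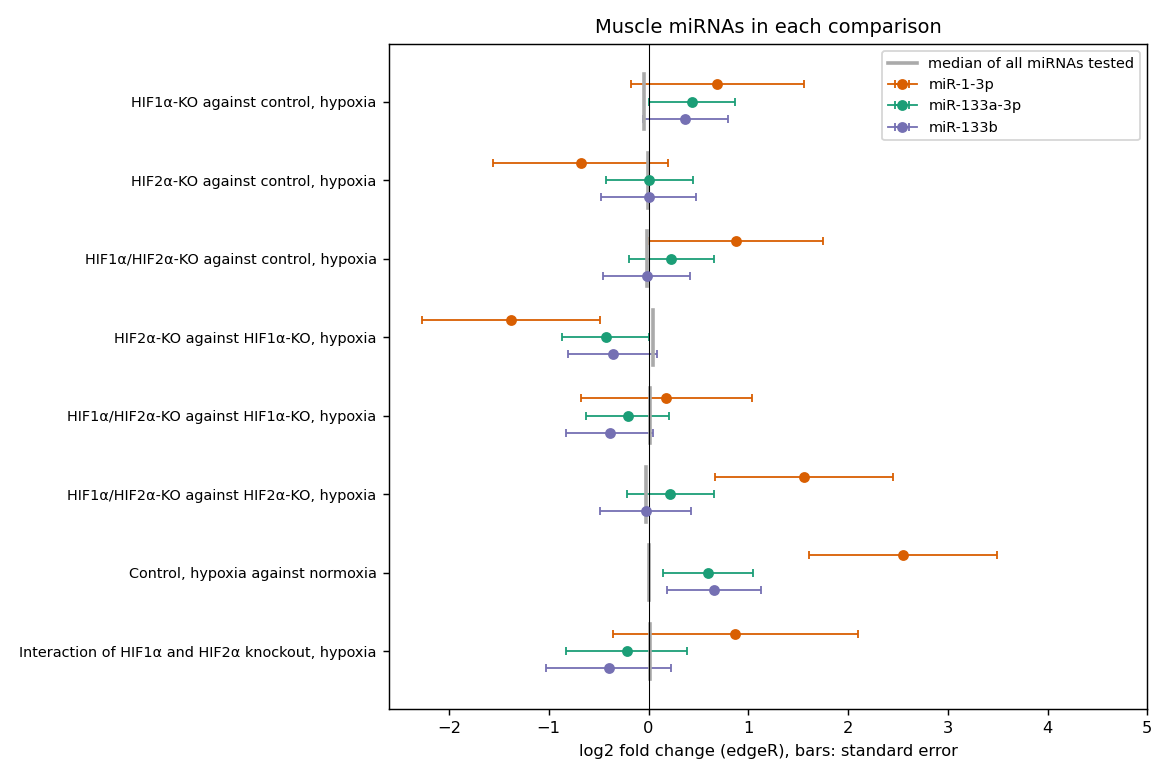
log2 fold changes (first group named minus second) of the 3 muscle miRNAs tested in 8 comparisons, with standard errors as bars and the median of all 562 miRNAs as a grey line. miR-1-3p reaches from -1.38 to 2.55 with wide bars, and miR-133a-3p and miR-133b stay between -0.43 and 0.66.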

How the data were processed

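miRNA-Seq of 15 U87-MG libraries was analysed from the raw counts per mature miRNA that the authors deposited, as whole numbers without normalization. The submitters' processing notes name HISAT2, StringTie and DESeq2 without versions, and the study's supplementary methods name quantile normalization, which the counts do not include. The genome build and the rule for reads at several loci are not given in the sources used here. Groups and replicate numbers came from the labels. Counts were fitted with edgeR 4.0.16 in R 4.3.3 (TMM, filterByExpr, 562 miRNAs, 1 mean per group over 15 libraries) and tested by 8 contrasts with the quasi-likelihood test. DESeq2 1.42.0, limma 3.58.1 on quantile-normalized log2(CPM + 1), other scalings and filters, and the libraries compared alone were alternatives. So were the miR-126 set as a covariate, the replicate block, and leaving out miR-21-5p or each replicate. A GC correction (loess, span 0.75, on the mature miRNA), that correction with the block, and counts divided by the number of loci were added after seeing the data. The fits were tested on simulated data. Sequences and loci came from RefSeq (GRCh38.p14) and overlapping genes from GENCODE v29. All 4 muscle miRNAs were named in every comparison, with the 3 miRNAs most and least like each member tested and the lineage lists. The members and lists were chosen with earlier results of these data known. Intervals and floors cover counting error only.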

Additional observations from a re-analysis of the deposited data

How the results depend on the processing

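No muscle miRNA passed the threshold in any comparison under any alternative run, except that the fit without a filter on low counts called 1, miR-1-3p, in each of 3 comparisons (hypoxia against normoxia in control cells, adjusted p 4.44e-15; HIF2α-KO against HIF1α-KO, 0.000116; HIF1α/HIF2α-KO against HIF2α-KO, 5.34e-06). Its median prior degrees of freedom were infinite, against 3.75 with the filter. In that fit 3 of 24 fold changes changed sign. Under the other alternatives, 245 of 272 fold changes of the 3 miRNAs kept their sign and side of the threshold and 27 changed sign, as did 17 of 162 with 1 replicate left out. The cause was not tested. Calls over all miRNAs are given above for DESeq2 and the fit without the filter, but not for the other alternative runs. In those runs, a count of 0 therefore says little about the muscle miRNAs.

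For HIF2α-KO against control cells, the log2 fold changes that changed sign were, for miR-1-3p, 0.07 with the miR-126 set and 0.10 with the GC correction; for miR-133a-3p, -0.13 with total counts, -0.05 without the filter, -0.04 in limma, -0.02 with the GC correction, and -0.03 with counts divided by loci or without miR-21-5p; and for miR-133b, -0.14 with total counts, -0.06 without the filter, and -0.03 with counts divided by loci or without miR-21-5p. For HIF1α/HIF2α-KO against control cells, miR-133b gave 0.03 with total counts, 0.00 in DESeq2, 0.06 in limma, 0.10 with the miR-126 set and 0.07 with the GC correction. Against HIF1α-KO cells, miR-1-3p gave -0.24 with the GC correction, and in the interaction -0.34. Against HIF2α-KO cells, miR-133b gave 0.17 with total counts, 0.05 without the filter, 0.02 in limma, 0.00 with only the libraries compared and 0.05 with the GC correction. Total counts shifted the median of all miRNAs by -0.14 for HIF2α-KO against control, -0.18 against HIF1α-KO, 0.20 for HIF1α/HIF2α-KO against HIF2α-KO and 0.16 in the interaction.

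Leaving out each replicate in turn called 0 muscle miRNAs and gave ranges that crossed 0 in these results. For HIF2α-KO against control cells they were -0.49 to 0.22 for miR-133a-3p and -0.40 to 0.23 for miR-133b; for HIF1α/HIF2α-KO against control cells, -0.29 to 0.22 for miR-133b; against HIF1α-KO cells, -0.33 to 0.61 for miR-1-3p and -0.52 to 0.00 for miR-133a-3p; against HIF2α-KO cells, -0.01 to 0.71 for miR-133a-3p and -0.31 to 0.36 for miR-133b; and in the interaction, -0.53 to 0.25 for miR-133a-3p. The range of miR-1-3p for hypoxia against normoxia was 2.07 to 3.53. It was 0.28 to 1.20 for HIF1α-KO against control cells and -1.93 to -0.87 for HIF2α-KO against HIF1α-KO cells. Without HIF1α-KO replicate 3, the values in these 2 comparisons were 1.18 and -1.93. That library also had the lowest neural sum (3646 CPM) and the lowest median deviation of the miRNAs of low GC (-0.83, log2).

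The replicate numbers did not pair the libraries. Correlations of same-numbered libraries ran from -0.61 to 0.53 and did not exceed 0.1 in every pair of any comparison, and 3 of 15 libraries correlated best with their own number. The replicate block called 0 muscle miRNAs. With the block, miR-1-3p changed sign to -0.25 for HIF1α/HIF2α-KO against HIF1α-KO, and moved to 1.30 for HIF1α-KO against control, to -2.05 for HIF2α-KO against HIF1α-KO and to 0.50 in the interaction. With the block and the GC correction, values that changed sign were -0.41 for miR-1-3p in that comparison, -0.35 for miR-1-3p in the interaction, -0.01 for miR-133a-3p in HIF2α-KO against control, and, for miR-133b, 0.06 in HIF1α/HIF2α-KO against control and 0.03 against HIF2α-KO. By Spearman's rho, 1 of the 3 miRNAs most like miR-1-3p was kept. Depth limits miR-206, at 3 counts or fewer, and miR-133b, at 4 to 27 counts.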
